A study of Rattus norvegicus with 12 samples.

Results

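The genes described here are 6 that encode secretory proteins of the seminal vesicle and of other male accessory glands: Semg1, Svs4, Svs5, Svs6, Msmb and Tgm4. They were taken by symbol from the 14506 genes measured on the arrays, and each had exactly 1 probe set (a group of array probes summarised to 1 value). They were chosen with their values in view, so their levels and differences are given as a description without a test. The arrays measured the ventral prostate of 90-day-old male Wistar rats 3 days after treatment, in 4 groups of 3 arrays. Control rats were intact and received only corn oil, the vehicle. Castrated rats had their testes removed by orchiectomy. Estradiol rats were intact and received 17β-estradiol at 25 mg/kg in corn oil, and combined rats had both procedures. Ketamine at 150 mg/kg and xylazine at 10 mg/kg are given for the orchiectomy alone, so the loss of the testes cannot be told apart from the operation and its anaesthesia. Vehicle for the rats that were only castrated is not mentioned in the sources used here. The design text names 48 rats, and nothing in the labels says which animal each of the 12 arrays came from. The p-values therefore reflect only how far these samples spread, part of which may be technical.

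Seminal vesicle proteins are secreted into the ejaculate, where in rodents they form the copulatory plug. Semg1 encodes the rodent counterpart of semenogelin, a main clotting protein of semen, and Tgm4 encodes the prostate transglutaminase that cross-links such proteins. Msmb encodes beta-microseminoprotein, an abundant small protein of prostatic secretion. Svs4, Svs5 and Svs6 encode further seminal vesicle secretory proteins. Secretion by these glands depends on androgen. The ventral lobe of the rat prostate is better known for other products, among them the prostatic steroid-binding proteins. Probasin (Pbsn) is a further secretory protein of the prostate.

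Semg1, Svs4, Svs6 and Svs5 lie close together on chromosome 3 of the rat, while Msmb lies on chromosome 16 and Tgm4 on chromosome 8 (RefSeq, build GRCr8). The 250 bases upstream of the annotated start are shown for the 2 genes that were high on a single array, Semg1 and Msmb, and for 2 neighbours of Semg1 that were not, Svs4 and Svs5. All are written 5′ to 3′ on the strand of the gene. Capitals mark TATATAAA, a TATA-type stretch searched on the strand of the gene, and TGTTCT on either strand, one arm of the androgen receptor site. The TATATAAA motif was chosen after the sequences were seen. The windows are chr3:173332262-173332511 (minus strand) for Semg1, chr16:7372569-7372818 (plus strand) for Msmb, chr3:173369879-173370128 (minus strand) for Svs4 and chr3:173415271-173415520 (plus strand) for Svs5.
Semg1: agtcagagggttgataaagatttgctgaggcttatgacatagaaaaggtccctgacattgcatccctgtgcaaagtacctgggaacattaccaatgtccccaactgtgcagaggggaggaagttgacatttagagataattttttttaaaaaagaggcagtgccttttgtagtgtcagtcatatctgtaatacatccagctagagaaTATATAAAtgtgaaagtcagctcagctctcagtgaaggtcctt
Msmb: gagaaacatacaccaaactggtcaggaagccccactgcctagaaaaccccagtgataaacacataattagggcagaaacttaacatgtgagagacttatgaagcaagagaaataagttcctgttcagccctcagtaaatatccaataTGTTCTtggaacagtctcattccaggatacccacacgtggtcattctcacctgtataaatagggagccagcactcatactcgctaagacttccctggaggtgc
Svs4: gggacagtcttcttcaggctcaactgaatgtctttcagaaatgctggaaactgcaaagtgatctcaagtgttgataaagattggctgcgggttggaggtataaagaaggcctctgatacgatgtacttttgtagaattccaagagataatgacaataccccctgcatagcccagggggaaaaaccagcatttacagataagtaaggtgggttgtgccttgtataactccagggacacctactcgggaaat
Svs5: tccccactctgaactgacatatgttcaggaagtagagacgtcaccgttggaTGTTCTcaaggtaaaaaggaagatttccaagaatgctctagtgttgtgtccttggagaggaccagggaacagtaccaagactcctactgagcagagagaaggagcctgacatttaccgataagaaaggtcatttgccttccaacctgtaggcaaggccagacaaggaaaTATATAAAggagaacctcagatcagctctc

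TATATAAA was found in the windows of Semg1, Svs5 and Svs6, first at 43, 30 and 29 bases before the start, and in 0.899% of 33469 promoter windows of the same length. TGTTCT was found in the windows of Msmb and Svs5, and in 17.5% of all windows. Neither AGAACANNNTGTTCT, the full androgen receptor palindrome, nor GGTCANNNTGACC, the oestrogen receptor palindrome, both searched on both strands, occurred in any of the 6 windows. Over all promoters these occurred in 0.0120% and 0.0239%. The windows of Svs5 and Svs6 were 86.0% identical over their alignment, while the other 14 pairs of members were 48.5% to 54.7% identical. Svs5 and Svs6 are thus near copies in this stretch, and whether their probes read each other's RNA was not tested.

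Semg1 stood at a low level on 11 arrays and far above it on the third estradiol array. Its level (log2, as all levels below) was 3.02, 3.13 and 3.43 in the controls, 3.03, 3.01 and 2.70 in the castrated rats, 3.40, 2.62 and 9.46 in the estradiol rats and 2.87, 2.90 and 2.75 in the combined group. Estradiol 3 exceeded the next highest array, control 3, by 6.04, or 65.6-fold, whereas the other 11 arrays lay within 0.81 of each other. This was the largest gap between the highest and the next highest array among all 14506 genes. The group means were 3.19 ± 0.21 (SD, n = 3) in controls, 2.91 ± 0.19 after castration, 5.16 ± 3.75 after estradiol and 2.84 ± 0.08 after the combined treatment.

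Msmb showed the same array at the top. Its level was 3.65, 3.88 and 3.92 in the controls, 3.78, 3.84 and 4.07 in the castrated rats, 4.18, 3.61 and 8.47 in the estradiol rats and 3.61, 3.54 and 3.76 in the combined group. Estradiol 3 lay 4.30 above the next array, estradiol 1, which is 19.7-fold, and this was the second largest such gap of all genes. The group means were 3.82 ± 0.15 (SD, n = 3), 3.90 ± 0.16, 5.42 ± 2.66 and 3.64 ± 0.11 in the same order of groups. For both genes the SD of the estradiol group was thus set by 1 array, and the other 3 groups overlapped with each other except combined with control for Semg1 and combined with castrated for Msmb.

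**Figure D1:**
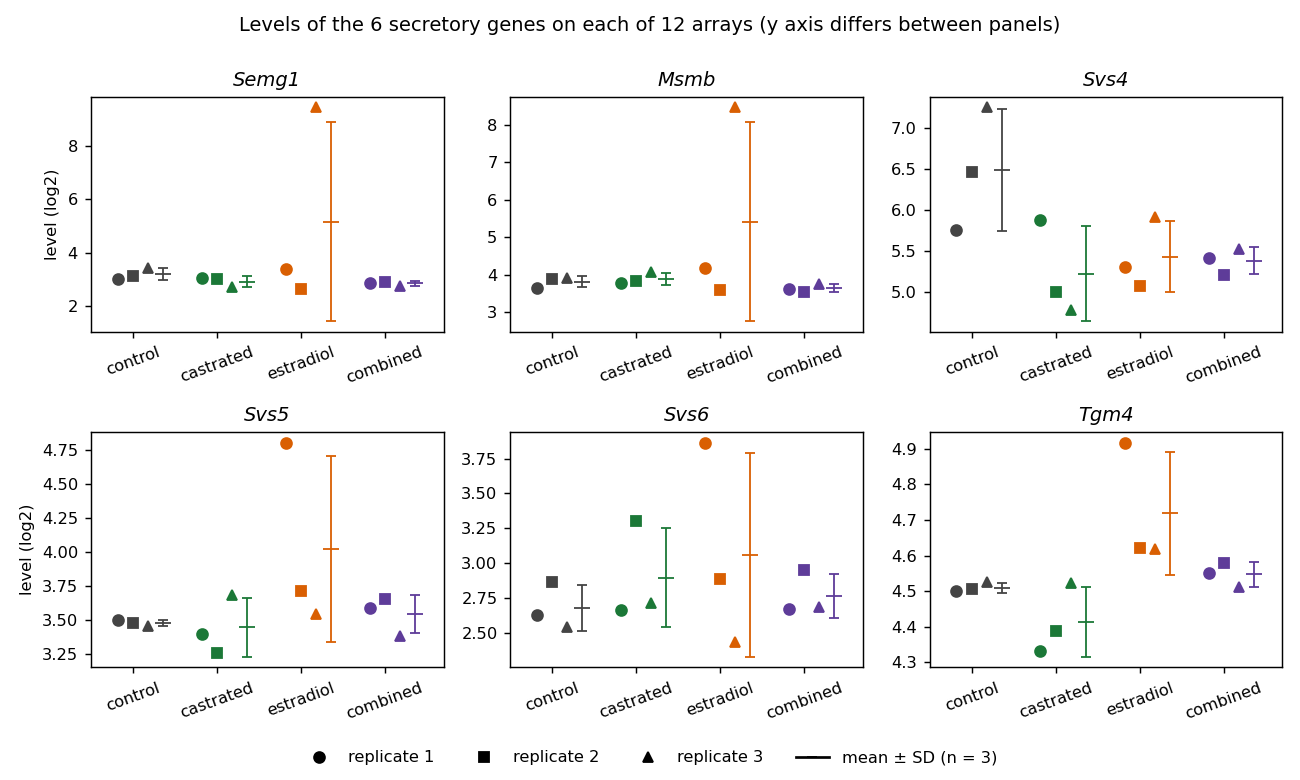
Level (log2) of each secretory gene on each of the 12 arrays, by group, with the y axis set for each gene. Symbols are the replicates, and bars at the right of each group are the mean ± SD (n = 3). Semg1 at 9.46 and Msmb at 8.47 were high on estradiol 3 alone, Svs4 reached its highest levels in controls, and Svs5, Svs6 and Tgm4 were highest on estradiol 1.

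On the scale of each array, which covers all named genes, Semg1 lay between the percentiles 1.24 and 9.48 on 11 arrays and at 92.6 on estradiol 3. Msmb lay between 6.96 and 16.4 and at 82.8. Probes differ in brightness, so these places describe the arrays and do not rank one gene's transcript against another's. No detection calls were used here, so levels this low were not told apart from background.

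Large single-array gaps were uncommon and most were on other arrays. Of all genes 1.16% had a gap of at least 1, which is 168 genes, and 117 of these were highest on estradiol 1 (0.807%) and 23 on estradiol 2 (0.159%). On estradiol 3 there were 3 (0.0207% of genes): Semg1, Msmb and Hpx, which encodes the heme carrier hemopexin. Hpx was at 5.95 there and at 4.94 on the next array, a gap of 1.01. After Semg1 and Msmb the next largest gap of any gene was that of Ubd at 3.03, on estradiol 1.

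**Figure D2:**
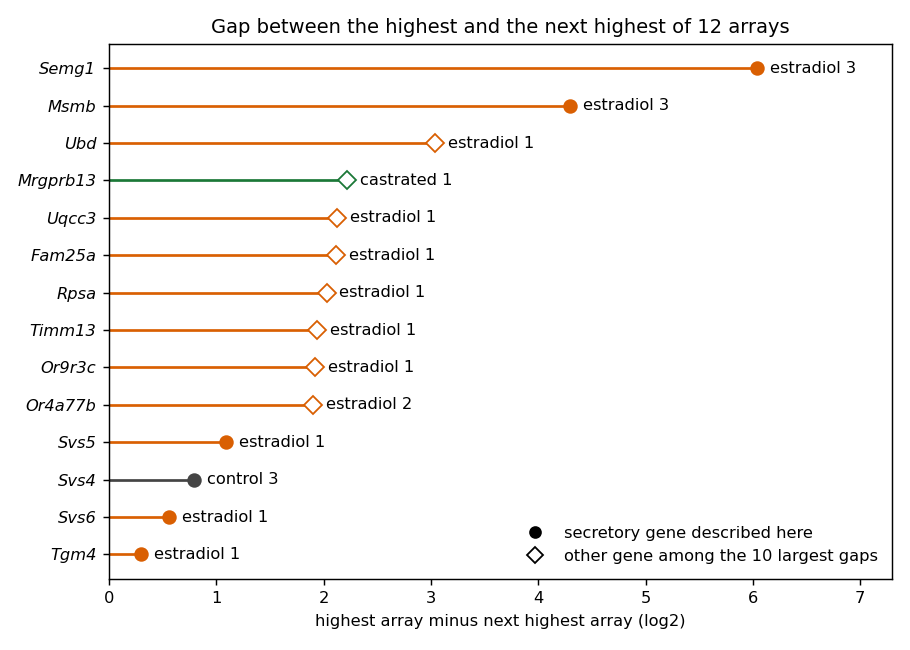
Level on the highest array minus that on the next highest (log2), for the secretory genes and for the other genes among the 10 largest gaps, with the highest array named beside each point. Semg1 (6.04) and Msmb (4.30) lie beyond every other gene, while Svs5 (1.09), Svs4 (0.79), Svs6 (0.56) and Tgm4 (0.30) lie below the 10 largest gaps.

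The 10 other genes with the largest gaps on estradiol 3 had far smaller ones, from 0.50 to 1.01. Aox3, an aldehyde oxidase, was at 8.13 there with a gap of 0.87. The beta-defensin gene Defb50 was at 6.72 with a gap of 0.67. The metallothionein genes Mt2A and Mt1, which encode metal-binding proteins, were at 11.57 and 10.30 with gaps of 0.63 and 0.50. The others were Zfp280b, Bex4, Pdlim3, Mcm7 and Acy1, with gaps between 0.50 and 0.75. On its next highest array each of these genes was within 1.01 of its level on estradiol 3.

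The neighbours of Semg1 and other accessory gland genes did not share the high values on this array. Of 30 measured neighbours within 500 kb of Semg1, Svs4, Svs5 or Svs6, only Ccn5 was highest on estradiol 3, by 0.01. The neighbours' level on that array minus their mean on the other 11 had a median of -0.06 and a range of -0.63 to 0.59, with a median of 0.00 over all genes. Svs3a, a seminal vesicle secretory gene between Svs4 and Svs6, was at 2.45 on estradiol 3 and between 2.15 and 4.08 elsewhere. Of 22 other accessory gland secretory genes, 0 were highest on estradiol 3, and their median on it minus the mean of the other 11 was -0.04. Svs3a, Slpi, Wfdc15a and Wfdc15b are in both lists, so the 2 lists are not separate. Over all genes 3.41% were highest on estradiol 3. Both counts are near that share, so they do not set these genes apart from other genes.

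Markers of neighbouring glands were looked at on the same array, which was the highest array for 3.41% of all genes. The 4 measured markers of seminal vesicle epithelium (Svs3a, Pax2, Pax8 and Hoxd13) had a mean of 5.88 on estradiol 3, within the 5.73 to 6.43 of the other arrays, and 0 of 4 were highest there. Hoxd13 was between 9.63 and 10.60 on all arrays, and Svs3a, Pax2 and Pax8 were between 2.15 and 5.76. Their mean is therefore a weak measure of seminal vesicle tissue. The 3 measured markers of the dorsolateral or anterior lobes other than members (Sbp, Spink1 and Apof) had a mean of 6.82, within 6.58 to 7.36, and 0 of 3 were highest there. Sbp and Apof are also listed among the ventral lobe's own products, so 2 of the 3 are shared. Sbp was between 12.54 and 13.28 on all arrays, Spink1 between 3.05 and 4.24 and Apof between 3.78 and 5.14. The mean of these markers is therefore also a weak measure of those lobes. Msmb and Tgm4, at 8.47 and 4.62 on estradiol 3, are on the same list and were left out as members. The 17 measured markers of epididymis and vas deferens averaged 4.24, within 4.07 to 4.72, and the 5 of urothelium averaged 5.23, within 4.99 to 5.65.

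**Figure D3:**
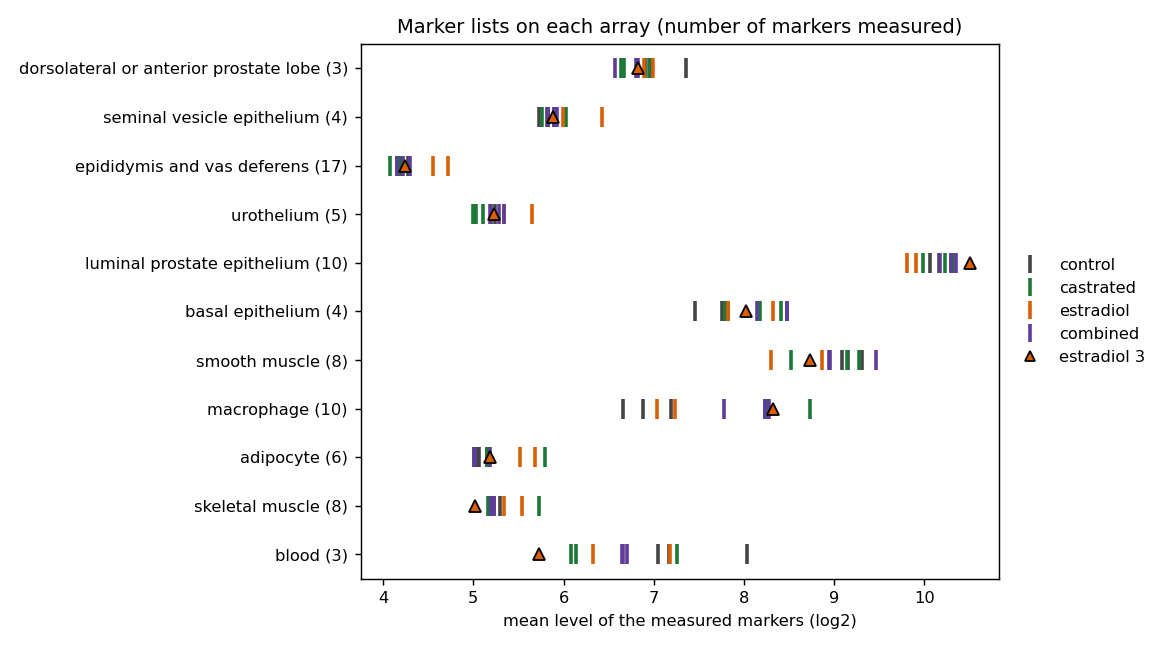
Mean level (log2) of the measured markers of each cell type or tissue on each array, with the number of markers in brackets. Ticks are the 11 other arrays coloured by group and the triangle is estradiol 3, which lies inside the range of the others for the seminal vesicle, dorsolateral, epididymis and urothelium lists, above it for luminal epithelium (inside it, at 10.60, once Pbsn is left out) and below it for skeletal muscle and blood.

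Estradiol 3 also differed from the other estradiol arrays in other genes. Those 2 arrays were themselves unusual, with an SD over all probe sets of 1.93 and 2.01 against 2.27 on estradiol 3, as described below. Pbsn, a secretory protein of the prostate, was at 9.71 on estradiol 3, at 6.28 and 4.82 on the other estradiol arrays and at 10.50, 11.47 and 11.63 in controls. The 10 measured macrophage markers averaged 8.32 on estradiol 3 and 7.04 and 7.23 on the other estradiol arrays, within the 6.66 to 8.73 of all others. The 10 measured luminal epithelial markers, which include Pbsn, averaged 10.51 on it, above the 9.81 to 10.35 of the other 11 arrays. Without Pbsn, a choice made after seeing the data, the other 9 averaged 10.60, within 10.02 to 10.91, and 6 arrays lay above estradiol 3. Blood markers averaged 5.73 (others 6.08 to 8.04) and skeletal muscle markers 5.02 (others 5.16 to 5.73). The part of these differences in the levels of Semg1 and Msmb was not tested. In bulk tissue, fewer cells of a type and less RNA per cell cannot be told apart.

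The estradiol group's mean for Semg1 and Msmb rested on estradiol 3. With all arrays Semg1 was 1.97 ± 1.20 (SE of the fit) above control, and without estradiol 3 it was at -0.18 ± 0.22. Msmb was 1.60 ± 0.85 above control with all arrays and 0.07 ± 0.18 without that array. For Semg1 the sign of the difference turned. In castrated rats the differences from control were -0.28 ± 1.20 and 0.08 ± 0.85, and in the combined group -0.35 ± 1.20 and -0.18 ± 0.85, for Semg1 and Msmb. The fit shares its spread over all groups, so estradiol 3 widened these SEs too. Without that array the SE of the castration and combined differences was 0.19 for Semg1 and 0.16 for Msmb. All 3 combined arrays lay below all controls for Semg1, and those of Msmb overlapped with the controls.

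**Figure D4:**
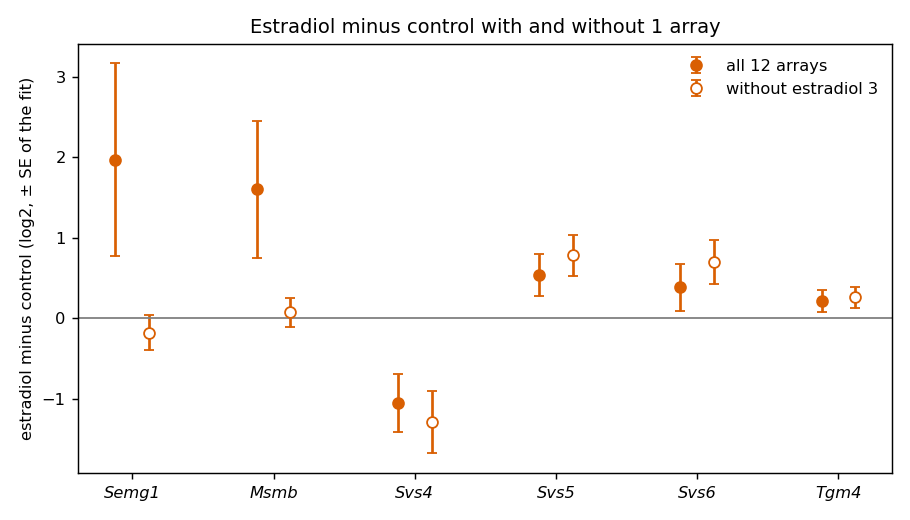
Difference of the estradiol group from control (log2) for each secretory gene, with all 12 arrays (filled) and without estradiol 3 (open). Bars are the SE of the fit. Semg1 moves from 1.97 to -0.18 and Msmb from 1.60 to 0.07, while Svs4 is at -1.06 and -1.30.

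Svs4 had its highest levels in intact, vehicle-treated rats. Its level was 5.76, 6.46 and 7.25 in the controls, 5.88, 5.01 and 4.79 in the castrated rats, 5.31, 5.08 and 5.91 in the estradiol rats and 5.42, 5.21 and 5.52 in the combined group. The combined arrays all lay below the controls, while castrated 1 and estradiol 3 lay above control 1. The means were 6.49 ± 0.75 (SD, n = 3) in controls, 5.43 ± 0.43 with estradiol, 5.38 ± 0.16 combined and 5.22 ± 0.58 after castration, and the 3 treated groups differed from each other by no more than 0.21. The differences from control were -1.26 ± 0.35 (SE of the fit) for castration, -1.06 ± 0.35 for estradiol and -1.11 ± 0.35 for the combined treatment. Without control 3 these differences were -0.88, -0.67 and -0.72, and without control 1 they were -1.63, -1.42 and -1.47. Without estradiol 1 and 2 the estradiol difference was -0.57. The effect of estradiol in castrated minus that in intact rats was 1.21 ± 0.50.

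Svs5 lay close to 3.5 on most arrays. Its level was 3.50, 3.48 and 3.46 in the controls, 3.39, 3.26 and 3.68 in the castrated rats, 4.80, 3.71 and 3.54 in the estradiol rats and 3.59, 3.65 and 3.38 in the combined group. All 3 estradiol arrays were above all controls, and estradiol 1 was 1.09 above the next array. The means were 3.48 ± 0.02 (SD, n = 3), 3.44 ± 0.22, 4.02 ± 0.68 and 3.54 ± 0.14 for control, castrated, estradiol and combined, and the ranges of the 3 treated groups overlapped.

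Svs6 was lower and as flat. Its level was 2.63, 2.86 and 2.54 in the controls, 2.67, 3.30 and 2.72 in the castrated rats, 3.86, 2.89 and 2.43 in the estradiol rats and 2.67, 2.95 and 2.68 in the combined group. Estradiol held both its highest and its lowest array, so no group lay apart from another. The means were 2.68 ± 0.17 (SD, n = 3), 2.90 ± 0.35, 3.06 ± 0.73 and 2.77 ± 0.16.

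Tgm4 varied least. Its level was 4.50, 4.50 and 4.53 in the controls, 4.33, 4.39 and 4.52 in the castrated rats, 4.92, 4.62 and 4.62 in the estradiol rats and 4.55, 4.58 and 4.51 in the combined group. All estradiol arrays were above all others, but narrowly, with estradiol 3 at 4.62 and combined 2 at 4.58. The share of all genes with this order was not counted. The means were 4.51 ± 0.01 (SD, n = 3), 4.41 ± 0.10, 4.72 ± 0.17 and 4.55 ± 0.03.

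Svs5, Svs6 and Tgm4 all had their highest value on estradiol 1, an array that stood apart as a whole. It was the highest array for 29.9% of genes and for 49.3% of the 4178 genes with a mean under 5, and estradiol 2 was highest for a further 33.9% of those. The SD of levels over all probe sets was 1.93 and 2.01 on these arrays against 2.24 to 2.30 on the other 10. The 10% of genes with the lowest means over all arrays averaged 3.41 and 3.34 on them against 2.69 to 2.84 elsewhere. With all arrays the estradiol differences from control were 0.54 ± 0.26 (SE of the fit) for Svs5, 0.38 ± 0.29 for Svs6 and 0.21 ± 0.14 for Tgm4. Without estradiol 1 they were 0.15, -0.02 and 0.11, and after quantile normalization, which gives all arrays the same distribution, 0.25, 0.05 and -0.03, so that those of Svs6 and Tgm4 each changed sign once. After quantile normalization the estradiol arrays of Svs5 and Tgm4 also overlapped with the controls. Castration and the combined treatment left these genes between -0.10 and 0.22 of control.

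Over all members, 0 of 6 passed the fit across all genes in any comparison with control, where 5.54% of genes passed for castration, 7.99% for estradiol and 4.32% for the combined treatment. For castration 0 of 6 members lay wholly above or below the controls, as 32.5% of all genes did. For estradiol 2 lay above (Svs5 and Tgm4, against 12.3% of genes) and for the combined treatment 2 lay below (Semg1 and Svs4, against 15.8%). The median difference of the members from control was -0.06, 0.46 and -0.07 for castration, estradiol and combined, beside 0.01, 0.07 and 0.04 over all genes. The 3 comparisons share the control arrays, and nothing is read from these counts because the members were chosen on these values.

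The genes whose levels followed the members most closely over the 12 arrays split in the same way. Those with the highest Pearson correlation with Semg1 were Dpy19l3 (r = 0.87), Hpx (0.83), Npc2 (0.82), Gsto1 (0.79) and Rasd2 (0.76), and for Msmb they were Npc2 (0.88), Hpx and Dpy19l3 (0.84 each), Atp12a and Moxd1 (0.75 each). All of these were also highest on estradiol 3, the point on which these correlations rest. Npc2, a cholesterol-binding secreted protein, was at 9.31 there and between 8.53 and 8.85 elsewhere. For Svs4 they were Tbxa2r (0.90), Copg1 (0.88), Amtn (0.86), Pebp1 (0.85) and Rabac1 (0.84), and Amtn was at 4.62, 5.44 and 6.13 in controls and between 3.43 and 4.07 on the treated arrays. For Svs5 (Cfap45, Npy5r, Hrh3, Fgd3 and Qprt, 0.96 to 0.98), Svs6 (Or9i14, Or4a72, Dscam, Vom1r90 and Acbd7, 0.94 to 0.96) and Tgm4 (C3h20orf144, Ccdc148, Ftmt, Cdc45 and Iapp, 0.94 to 0.96) all of the genes were highest on estradiol 1. These correlations share their 12 arrays and are a description.

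The chromosomal neighbours of the seminal vesicle genes were tested, since position was not used to choose the members. Many encode whey acidic protein (Wfdc) type protease inhibitors and related secreted proteins. In each comparison with control, 3 of 30 fell and 0 rose by limma's moderated test, beside 2.36%, 5.48% and 2.21% of all genes that fell for castration, estradiol and combined. They were Wfdc3, Wfdc11 and Dnttip1 each time. The median difference of the 30 was -0.07, 0.17 and -0.01, beside 0.01, 0.07 and 0.04 over all genes.

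Wfdc3, a Wfdc-type gene at the far end of the cluster, was at 11.55, 11.45 and 11.37 in the controls, 7.37, 7.06 and 6.18 in the castrated rats, 7.99, 9.42 and 8.77 in the estradiol rats and 7.24, 6.96 and 8.00 in the combined group. No treated array overlapped with a control. It fell by 4.59 ± 0.37 (SE) after castration, by 2.73 ± 0.37 after estradiol and by 4.06 ± 0.37 after the combined treatment (limma, adjusted p = 9.17e-06, 0.000747 and 2.4e-05). The effect of estradiol differed between castrated and intact rats by 3.26 ± 0.52 (adjusted p = 0.00818 for this interaction, which 1.1% of genes passed).

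Wfdc11 was at 7.48, 7.29 and 6.71 in the controls and between 5.39 and 6.51 on the treated arrays. It fell by 1.63 ± 0.23, 1.09 ± 0.23 and 1.64 ± 0.23 (limma, adjusted p = 0.000931, 0.013 and 0.000938). The estradiol call was lost without control 1 (adjusted p = 0.0697), without control 2 (0.0675) and with only the compared groups (0.121). Dnttip1, which encodes a partner of terminal deoxynucleotidyltransferase, fell by 0.57, 0.50 and 0.61, each ± 0.14 (adjusted p = 0.0278, 0.0446 and 0.0228). Its castration call was lost without any 1 of the control or castrated arrays (adjusted p from 0.0557 to 0.134), and its estradiol call held in 5 of 21 alternatives, among the single arrays only without castrated 2 or estradiol 3. Its combined call was lost without control 2 or 3 or any combined array (0.0623 to 0.123). Without estradiol 3 the number of neighbours called for estradiol was 13 in place of 3, without control 1 or control 2 it was 1, and without estradiol 1 the combined count was 5.

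**Figure D5:**
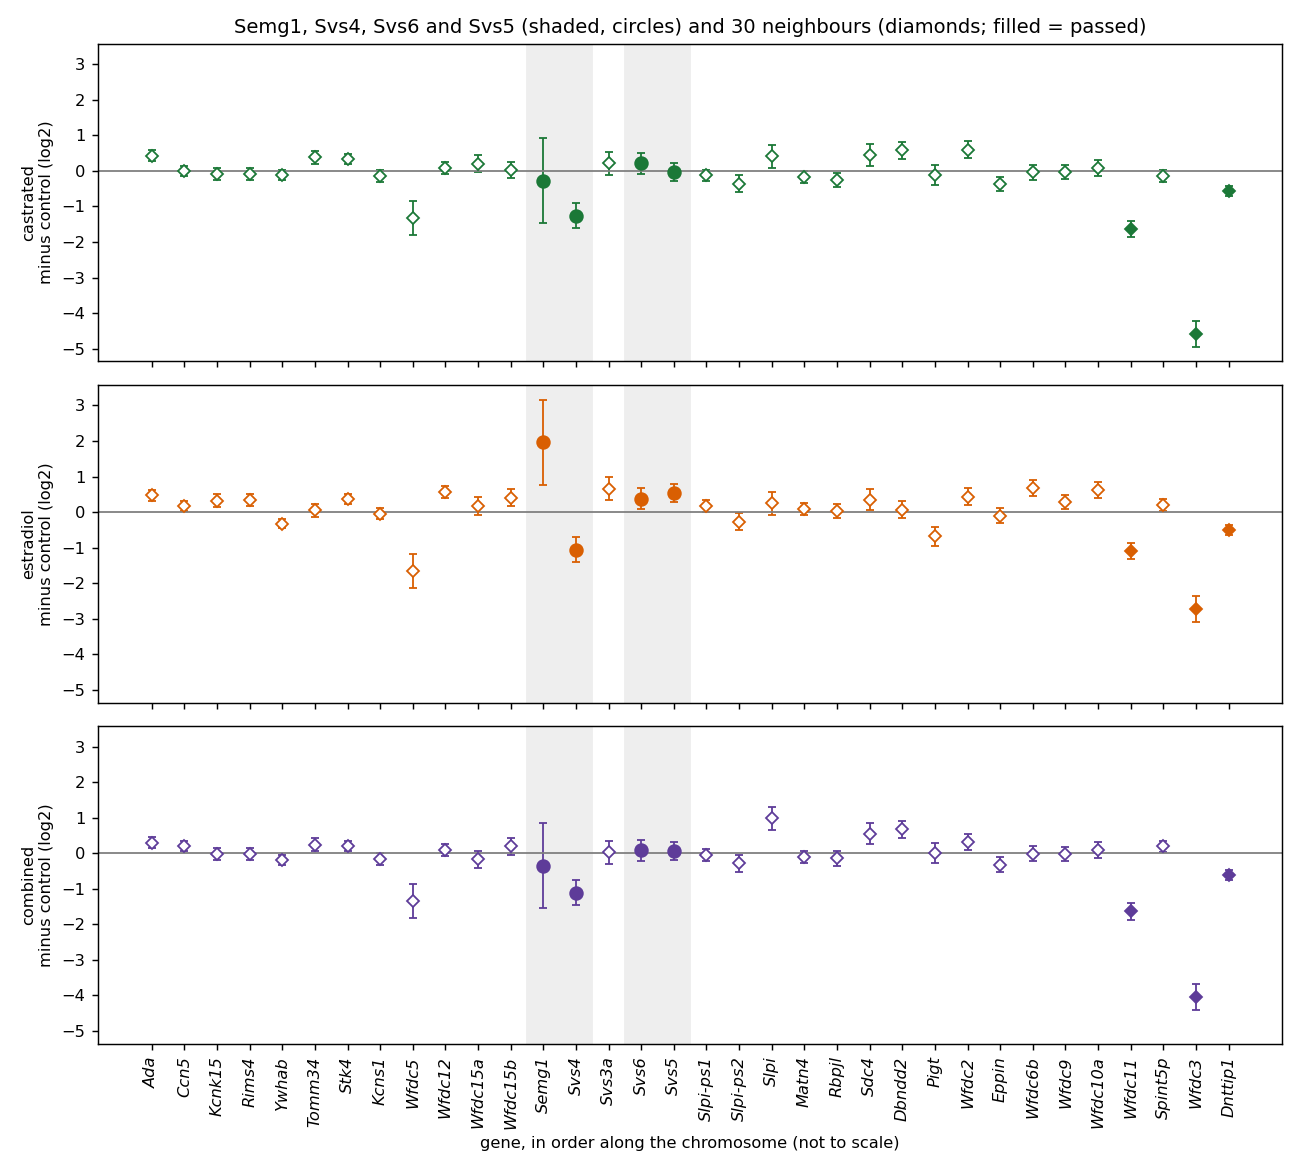
Difference from control (log2, bars are the SE of the fit) of 34 genes in their order along the chromosome, for castration, estradiol and the combined treatment. Shaded circles are Semg1, Svs4, Svs6 and Svs5, and filled diamonds are neighbours that passed: Wfdc3, Wfdc11 and Dnttip1 lie below 0 in all 3 panels.

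No measured gene directly beside the members passed. Wfdc15a and Wfdc15b, on one side of Semg1, were between 3.56 and 4.74 and between 4.78 and 5.87 over all arrays, and neither passed a test. Slpi, the secretory leukocyte protease inhibitor gene beyond Svs5, was between 7.35 and 8.81, with a difference of 0.98 in the combined group, and did not pass either. Wfdc5 lies on the side of Wfdc15a and Wfdc15b, further from Semg1. It was at 9.66, 10.05 and 10.23 in controls and lower on every treated array, at 6.99 to 9.43. Its differences were -1.33, -1.65 and -1.35, and its adjusted p was 0.153, 0.0524 and 0.166 by limma.

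Among 22 measured of 36 listed secretory genes of the seminal vesicle and other accessory glands that were not members, Ptgds fell in all 3 comparisons and no other gene passed, so 1 of 22 fell each time, beside 2.36%, 5.48% and 2.21% of all genes. Only 7 of the 22 had a mean above 5 over all arrays, and low levels limit what the others can show. Ptgds encodes lipocalin-type prostaglandin D synthase, a secreted enzyme of the male tract. It was at 5.80, 6.81 and 7.05 in the controls and between 4.97 and 5.48 on all treated arrays, without overlap. It fell by 1.47 ± 0.25 (SE) after castration, by 1.23 ± 0.25 after estradiol and by 1.23 ± 0.25 after the combined treatment (limma, adjusted p = 0.00362, 0.0106 and 0.0124). Its estradiol call was lost without control 2 (adjusted p = 0.0623) or control 3 (0.0561), with only the compared groups (0.11) and without estradiol 1 and 2 (0.0511), and its combined call without control 2, control 3, combined 1 or combined 3 (0.0563 to 0.0779). Without estradiol 3 the list had 7 calls for estradiol, and without castrated 2 it had 2 for estradiol and 2 for the combined treatment. As for Svs4, control 1 was the lowest of the controls.

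Transglutaminases, kallikreins, plasminogen activators and their partners were tested as a list, with 33 measured of 40 listed. They are called semen clot genes below because such families include enzymes that act on the clot. Whether each listed gene does so was not tested. For castration 2 rose and 2 fell, for estradiol 2 rose and 0 fell, and for the combined treatment 2 rose and 1 fell, beside 3.17% and 2.36%, 2.51% and 5.48%, and 2.12% and 2.21% of all genes. Tgm1, a transglutaminase of epithelial cell envelopes and a relative of Tgm4, was at 5.49, 6.12 and 6.11 in controls and between 6.76 and 7.43 on every treated array. It rose by 1.23, 1.25 and 1.23, each ± 0.21 (SE; limma, adjusted p = 0.00389, 0.00375 and 0.00436), where Tgm4 itself stayed within 0.21 of control. The estradiol call of Tgm1 was lost without estradiol 1 and 2 (adjusted p = 0.0626). Whether Tgm1 and Tgm4 differed was not tested.

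Plau, the urokinase-type plasminogen activator, rose by 1.23 ± 0.22 after castration and by 1.36 ± 0.22 after the combined treatment (limma, adjusted p = 0.00513 and 0.00293), and its estradiol difference was 0.76 ± 0.22 (0.053). The kallikrein gene Klk1c12 fell by 1.53 ± 0.33 and by 1.63 ± 0.33 (0.0139 and 0.0114), and its estradiol difference was -0.76. Both its calls were lost without control 2 or 3, the castration call also without castrated 2 or 3, and the combined call also without combined 1 or 3 (0.0503 to 0.0781). The kallikrein gene Klk1b3 fell by 0.85 ± 0.22 after castration (0.0393), and this call held in 14 of 21 alternatives; it was lost without castrated 2 or 3, any control, or combined 2 or 3 (0.0525 to 0.167). Klk4 rose by 0.73 ± 0.19 with estradiol (0.0344) and held in 11 of 21; it was lost without any control, castrated 1 or 3, estradiol 1 or 2, or combined 3 (0.0515 to 0.125), with only the compared groups (0.177), and without estradiol 1 and 2 together (0.426). The list had 7 calls for estradiol without estradiol 3 and 7 for castration without estradiol 1. Members of the Klk1 family are close copies of each other, so their probe sets may share signal.

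Prostatic secretory genes listed for the ventral lobe, Pbsn among them, were tested in the same way, with 18 measured of 26 listed. Whether each is particular to that lobe was not tested. For castration 1 rose and 2 fell, for estradiol 0 rose and 2 fell, and for the combined treatment 1 rose and 1 fell, beside 3.17% and 2.36%, 2.51% and 5.48%, and 2.12% and 2.21% of all genes. The median difference of the 18 was -0.23, -0.31 and -0.19, beside 0.01, 0.07 and 0.04 over all genes. Sbp, Scgb1d2, Scgb1d4 and Scgb2a1 did not pass. They averaged 13.24, 13.18, 13.20 and 12.86 in controls, near the highest value of any probe set, 13.39, which limits what they can show. Only 12 of the 18 had a mean above 5. Pbsn fell by 6.57, 4.26 and 5.32, each ± 0.94 (SE; limma, adjusted p = 0.000991, 0.0164 and 0.00487). Its estradiol call held in 16 of 21 alternatives. It was lost without control 2 (0.0702), control 3 (0.0694) or estradiol 2 (0.0512), with only the compared groups (0.094), and without estradiol 1 and 2 together (0.353, difference -1.49). Andpro, an androgen-regulated secreted protein, fell by 1.88 and 1.82, each ± 0.49, after castration and estradiol (0.0396 and 0.0393), and these calls held in 13 and 10 of 21 alternatives. The castration call was lost without any control, any combined array, castrated 1 or castrated 2, and the estradiol call without any control, any combined array, castrated 1 or estradiol 1 (0.0506 to 0.155). The estradiol call was also lost with only the compared groups (0.0993), after quantile normalization (0.061) and without estradiol 1 and 2 (0.304). Azgp1, a zinc-binding glycoprotein, rose by 2.43 after castration and by 1.99 after the combined treatment, each ± 0.43 (0.00417 and 0.0165), and the second call was lost without control 2 or 3 or combined 2 or 3 (0.0544 to 0.0935). Without estradiol 3 the list had 9 calls for estradiol, and without estradiol 1 it had 4 for estradiol and 5 for the combined treatment.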

How the data were processed

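The values are the deposited log2 levels, 1 per probe set and array, made by the authors with Affymetrix Expression Console per the submitters' processing notes, with version, summary method and build not given in the sources used here. Array medians lay between 5.53 and 5.76. Of 29214 probe sets, 15310 had 1 gene symbol (15279 matched the gene table by identifier), 323 several and 13581 none; only the first were used by gene, with the probe set of the highest mean for the 527 genes that had more, which left 14506 genes. The number of arrays, 3 per group, limits the precision. Columns of other samples numbered 0.

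The test was limma's (version 3.58.1, under R 4.3.3), lmFit followed by eBayes with 1 mean per group over 12 arrays and 8 residual and 5.29 prior degrees of freedom, 2-sided, with Benjamini-Hochberg adjustment over all genes and a threshold of 0.05, and the procedure was tested on simulated data. "Rose" and "fell" mean that a gene passed. The interaction is the effect of estradiol in castrated minus that in intact rats. Alternatives were median centring, quantile normalization, only the compared groups, array weights, a trended robust prior, a filter on dim genes, the mean of probe sets, a replicate block and leaving out arrays.

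The members and the gene lists were chosen with earlier results of these data known. Named genes were the members; from each of the 4 lists up to 4 genes by size of difference among those that passed, or else the gene of lowest p; the 5 genes most correlated with each member; and the 10 with the largest gap on an array that was highest by at least 1 for 2 or more members. Ubd, Ccn5, Svs3a, Wfdc5, Wfdc15a, Wfdc15b, Slpi, Scgb1d2, Scgb1d4 and Scgb2a1, and marker genes outside these, were named after their values were seen. Upstream sequences are RefSeq's (GRCr8), and all 6 members matched; pairs were aligned globally. Python 3.11.15 and matplotlib 3.10.9 drew the figures.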

Additional observations from a re-analysis of the deposited data

Results flagged for a closer look

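The effect of estradiol on Wfdc3 differed between castrated and intact rats by the interaction test: estradiol minus control was -2.73 in intact rats, combined minus castrated was 0.53, and the difference between these effects was 3.26 ± 0.52 (SE; limma, adjusted p = 0.00818, with all 3 estradiol arrays below all 3 controls). It passed in all 20 alternatives run for it, with values from 2.89 to 3.61.

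Probe sets without a gene symbol were not used by gene. Of 13904 probe sets with no single symbol, 1 was highest on estradiol 3 by at least 1: probe set 10888777 was at 6.65 there, 2.10 above the next array, and at 4.30, 1.33 and 1.84 in controls. It varied by several units among the other arrays too, from 1.33 to 4.55.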

How the results depend on the processing

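With 3 arrays per group the counts of list genes that passed moved readily. The 29 named differences that passed kept their sign in every alternative. Of 606 recomputed tests of these, 514 kept their side of the threshold and 92 lost it. Named genes that did not pass are not covered by these counts. For castration, estradiol and combined, the single counts below stand beside 1, 1 and 1 (other accessory gland genes), 4, 2 and 3 (semen clot genes), 3, 2 and 2 (ventral lobe secretory genes) and 3, 3 and 3 (neighbours). Array weights gave 3, 5 and 3, then 18, 5 and 15, then 9, 7 and 10, then 12, 6 and 12. Fitting only the compared groups gave 0 (estradiol) and 2 (combined), then 9, 1 and 7, then 0 (estradiol) and 7 (combined), then 5, 1 and 7. Without estradiol arrays 1 and 2 they were 0 (estradiol) and 2 (combined), then 10 (castration), then 8, 1 and 6, then 8 (castration) and 7 (combined). Quantile normalization left 1 ventral lobe gene for estradiol, and dropping genes with a mean of 5 or less gave 4 semen clot genes for estradiol. Leaving out single arrays gave, for castration, estradiol and combined, 1 to 1, 0 to 7 and 0 to 2; 2 to 7, 1 to 7 and 2 to 4; 2 to 4, 0 to 9 and 1 to 5; and 2 to 4, 1 to 13 and 2 to 5. Over all genes the calls for castration, estradiol and combined were 803, 1159 and 627, and 3788, 2307 and 4134 with array weights, 1872, 197 and 2871 with only the compared groups, and 2408, 733 and 2105 without estradiol 1 and 2. Estradiol had 5329 without estradiol 3. The cause of these shifts was not tested.

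Replicate numbers are shared by the groups, but deviations of same-numbered arrays correlated between -0.16 and 0.28 (median 0.07, 7 of 18 pairs above 0.1), so the numbers were not taken to pair the samples. With the replicate block 2 other accessory gland genes passed for estradiol in place of 1, and 825, 1255 and 651 genes passed overall.

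Of 363 recomputed differences of members, 356 moved by less than the SD between replicates. The others were Semg1 (6.27) and Msmb (4.65) for estradiol without estradiol 1 and 2, Svs6 there (-0.25), and Tgm4, at -0.18 and -0.05 with median centring (castration and combined) and at -0.03 and -0.02 after quantile normalization (estradiol and combined). For Semg1 and Msmb the SD of the estradiol group (3.75 and 2.66) was itself set by estradiol 3. Their changes without that array, from 1.97 to -0.18 and from 1.60 to 0.07, were therefore counted among the 356. The count thus does not show that these differences were stable. Levels near the bottom of the arrays' scale limit what Semg1, Msmb, Svs5 and Svs6 can show on most arrays.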
